A study of Mus musculus with 40 samples.

Results

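The transcripts described here are those of 33 named complement and coagulation genes, all of which were found among the 15958 genes of the deposited expression table. They were followed in 18 liver libraries, with 11 ileal and 11 duodenal libraries for contrast. All mice were wild type C57BL/6 males that were 8 weeks old at surgery. One group had a sham operation and vehicle, another had small bowel resection (SBR) and vehicle, and the last had SBR and 30 mg/kg WUSTL0717 each day for 7 weeks, starting 3 weeks after surgery. The liver groups held 5, 8 and 5 mice in that order, and each intestinal region held 3, 4 and 4. No sham mice received WUSTL0717, an amide analog of GW3965 that the study describes as a gut-restricted agonist of the liver X receptor. The labels give the extent of resection as 50 to 60%, whereas the study's text gives a larger share. The ileum was the segment beyond the anastomosis.

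Complement is a cascade of plasma proteins made mainly by hepatocytes. It is started by antibody (classical pathway), by sugars on a surface (lectin pathway) or by slow self-activation (alternative pathway), and the routes meet at C3 and end in a pore built from C5b, C6, C7, C8 and C9. Coagulation is a parallel cascade in which serine proteases activate one another until thrombin turns fibrinogen into fibrin. Antithrombin and the protein C system restrain it, and plasmin dissolves the clot. Hepatocytes make nearly all of these proteins, so their transcripts are commonly read as part of the liver's secretory output.

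In the liver, 17 of the 33 genes fell after SBR and none rose, where 4.47% of all genes were lower and 37.4% higher. On the deposited, batch-corrected scale the largest falls were in the genes of the terminal complement pore. *C8a*, *C8b* and *C9* fell by 1.38, 1.30 and 1.02 on the log2 scale. Hepatocyte markers fell as well, and with libraries centred on those markers 4 members were lower and 11 higher, beside 1.26% and 87.8% of all genes. With WUSTL0717, *C8b* and *C9* were higher than in SBR mice given vehicle, by 0.57 and 0.63, and *C8a* and *C8b* still lay below sham. Centred on hepatocyte markers neither was called, and both calls were also lost without any of 3 WUSTL0717 libraries. In the ileum, *Mbl2*, a mannose-binding lectin gene, fell by 4.38 after SBR, where its difference in the liver was -0.11.

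The promoters of the 3 genes with the largest falls in the liver, and that of *Mbl2*, are printed because these are the genes the comparisons turn on. They were taken from RefSeq on GRCm38.p6 and run from 250 bases before to 50 bases after the annotated start of transcription. Capitals mark matches, on either strand, to short motifs of liver factors. *C8a* lies at chr4:104876349-104876648 on the minus strand, *C8b* at chr4:104766067-104766366 on the plus strand, *C9* at chr15:6445096-6445395 on the plus strand and *Mbl2* at chr19:30232678-30232977 on the plus strand.
C8a: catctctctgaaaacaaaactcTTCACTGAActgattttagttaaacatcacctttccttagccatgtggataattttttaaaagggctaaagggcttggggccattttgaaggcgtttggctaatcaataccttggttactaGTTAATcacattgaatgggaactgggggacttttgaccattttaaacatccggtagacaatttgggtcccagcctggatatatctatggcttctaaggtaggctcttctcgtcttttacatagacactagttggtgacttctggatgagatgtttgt
C8b: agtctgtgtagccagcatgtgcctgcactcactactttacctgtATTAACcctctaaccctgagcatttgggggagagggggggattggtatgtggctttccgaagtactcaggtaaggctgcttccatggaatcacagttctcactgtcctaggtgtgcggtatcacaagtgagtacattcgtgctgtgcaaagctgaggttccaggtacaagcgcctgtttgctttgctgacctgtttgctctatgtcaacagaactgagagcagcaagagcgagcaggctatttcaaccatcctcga
C9: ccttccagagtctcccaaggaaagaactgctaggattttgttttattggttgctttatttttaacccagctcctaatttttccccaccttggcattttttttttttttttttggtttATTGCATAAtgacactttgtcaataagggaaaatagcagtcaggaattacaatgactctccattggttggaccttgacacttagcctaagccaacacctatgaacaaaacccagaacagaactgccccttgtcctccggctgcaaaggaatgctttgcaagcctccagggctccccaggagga
Mbl2: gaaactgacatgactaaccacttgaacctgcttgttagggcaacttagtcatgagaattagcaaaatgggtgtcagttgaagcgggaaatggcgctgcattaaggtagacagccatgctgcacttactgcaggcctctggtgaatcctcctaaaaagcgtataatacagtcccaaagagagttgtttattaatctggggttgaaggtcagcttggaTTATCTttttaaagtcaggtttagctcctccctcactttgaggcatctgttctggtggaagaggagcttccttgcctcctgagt

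Promoters were found for 25 of the 33 members, and each was searched on both strands for 6 motifs, which could overlap each other. The core of an HNF1 site, searched as GTTAAT, was in 7 of the 25 (28%) and in 7.20% of 27025 promoters of the same length. *C8a* holds it from base -107 to -102, counted from the start of transcription, and *C8b* holds it on the other strand from -206 to -201. The C/EBP letters TTNNGNAAT were also in 7 (28%), against 11.6% of all promoters, and *C9* has them on the other strand from -133 to -125. The STAT letters TTCNNNGAA were in 7 (28%) against 8.47%, among them *C8a* from -228 to -220. The GATA letters AGATAA were in 3 (12%) against 11.4%, and *Mbl2* has them on the other strand from -34 to -29. The FOXA letters TGTTTAC were in 2 (8%) against 3.55%, and the HNF4 letters CAAAGTCCA in 0 of the 25 against 0.477%. These are matches of letters, and no binding was measured.

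Several members are neighbours in the genome (GENCODE M21, GRCm38). *C8b* (chr4:104766317-104804548, plus strand) and *C8a* (chr4:104815679-104876398, minus strand) point towards each other with 11130 bases between them. *F7* (chr8:13026034-13035809) and *F10* are 1498 bases apart, *F11* and *Klkb1* (chr8:45266689-45294859) on the same chromosome 4657 bases, and *Fgg*, *Fga* and *Fgb* lie in a row on chromosome 3 with gaps of 11026 and 6513 bases. *C6* (chr15:4727175-4814967) and *C9* (chr15:6445327-6498751) share a chromosome at a greater distance. *Cfb* and *C2* on chromosome 17 are separated by 85 bases. *C4b* and *Kng1* have near-identical copies elsewhere in the mouse genome, and the authors counted only uniquely aligned reads, so the levels of both are uncertain.

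Values are log2 TPM (an abundance scaled by transcript length and library size) after the authors' batch correction. The study's text says only that effects between experimental groups were corrected. The batches are taken here as the intestine and the liver, since ileal and duodenal libraries shared their tied lowest values. The correction placed the tissues and the genes on adjusted scales, so levels were compared only within a gene and a tissue, and a log2 difference is on that adjusted scale. Where genes are ordered by log2 fold change, the order is on these scales too and may differ from that of the uncorrected values. The reads behind each value are unknown. In the liver none of the 33 genes had a tied lowest value. In the intestine 11 did, from 5 of 22 libraries for *F11* to 20 of 22 for *Mbl1*, which is how equal inputs, such as no reads, appear after the correction. The hepatocyte marker *Alb* (albumin) lay between 8.16 and 9.87 in the liver libraries, a level that cannot be set against other tissues or genes after the correction. An exocrine pancreas signal was present in SBR vehicle library 7 of the liver, where the mean of 8 pancreas markers was 7.35 against at most 2.32 in any sham library. The mean z score over the 33 members was -0.18 in that library.

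SBR vehicle library 2 stood apart over these genes. It was the lowest of all 18 liver libraries for 32 of the 33 members, and for the remaining member, *C2*, SBR vehicle library 3 was lowest. The mean z score over the members was -2.63 in library 2 and -1.11 in library 3. The other SBR vehicle libraries lay between -0.43 and 0.37, the sham libraries between -0.14 and 0.95, and the WUSTL0717 libraries between -0.20 and 0.60. *Alb*, the hepatocyte marker that fell least after SBR, was also lowest in library 2, at 8.16. Its medians in the 3 groups were 9.44, 9.41 and 9.36. The liver comparisons with SBR vehicle mice are therefore also given without these libraries.

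**Figure D1:**
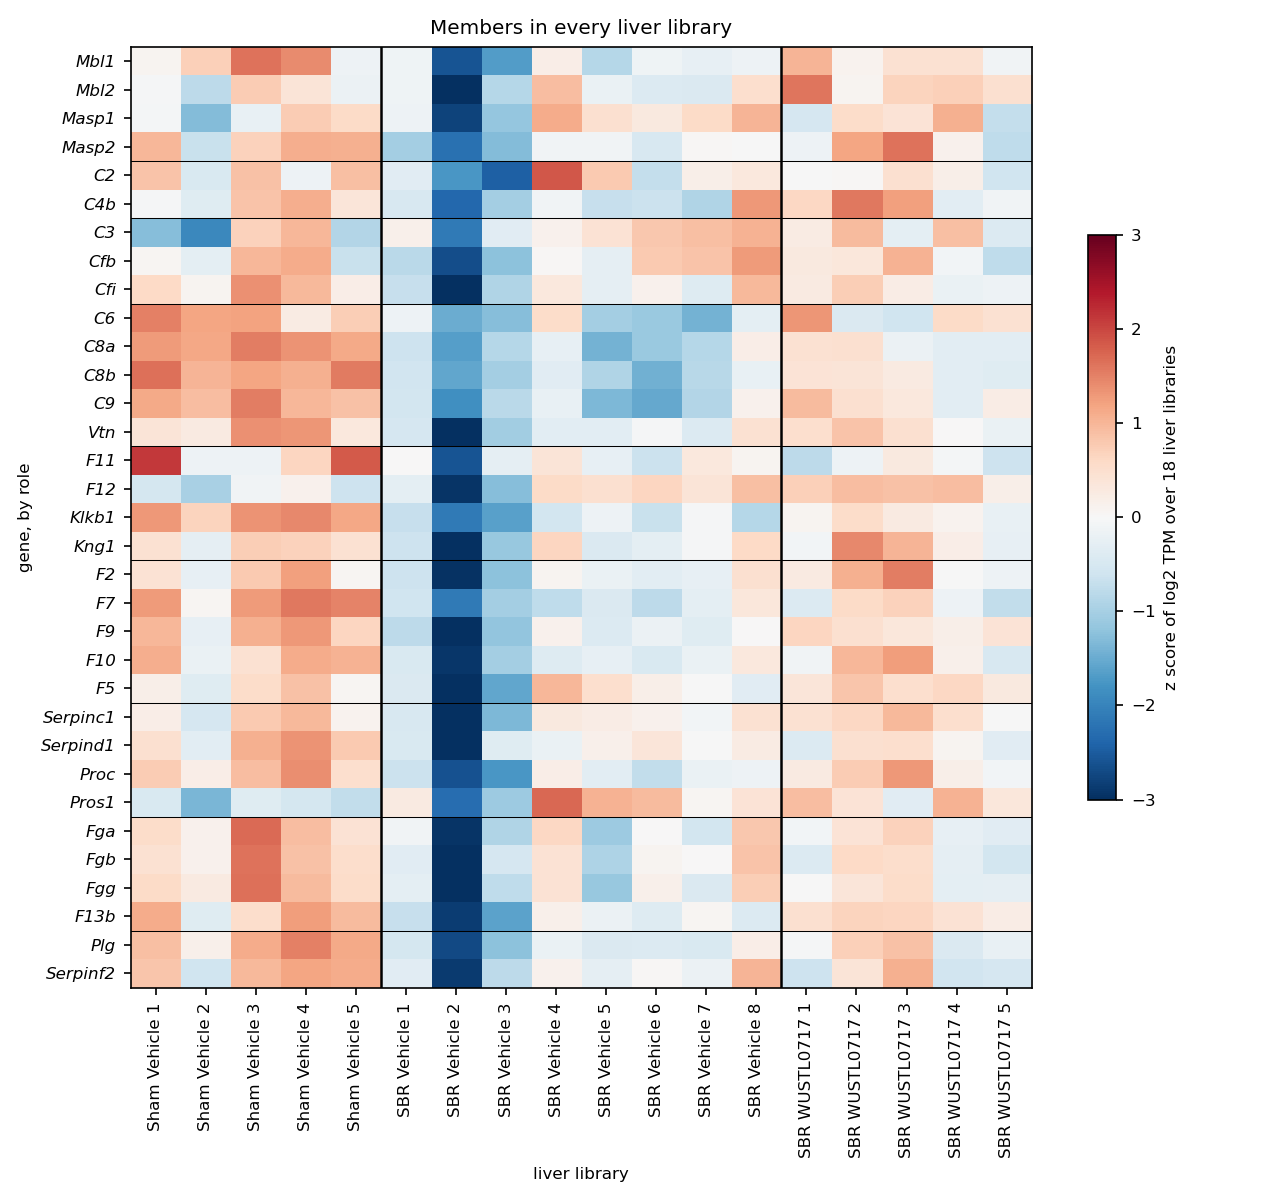
Each of the 33 genes (rows, ordered by role) in each of the 18 liver libraries (columns, by group), coloured by the z score of its log2 TPM over the 18 libraries. SBR vehicle library 2 is the darkest blue column, with a mean z score of -2.63, and the terminal pathway genes are red in the 5 sham libraries and blue in most SBR vehicle libraries.

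The first comparison asks how resection changed these transcripts in the liver. Of 15901 genes tested with limma, 4.47% were lower after SBR and 37.4% were higher at a Benjamini-Hochberg adjusted p under 0.05, and the median log2 fold change over all of them was 0.25. Among the members 17 of 33 were lower and 0 were higher, 30 had a negative difference, and the median was -0.36. Since most genes shifted upward, the members lay lower still against the other genes. When each library was centred on its median, 31 of the 33 members were lower, all but *C3* and *Pros1*, beside 28.8% of all genes, and the calls over all genes then split into 3245 higher and 4580 lower in place of 5953 and 710. Of the members 4 (*C8a*, *C8b*, *C9* and *Klkb1*) had every SBR vehicle library below every sham library, against 1.62% of the genes tested.

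**Figure D2:**
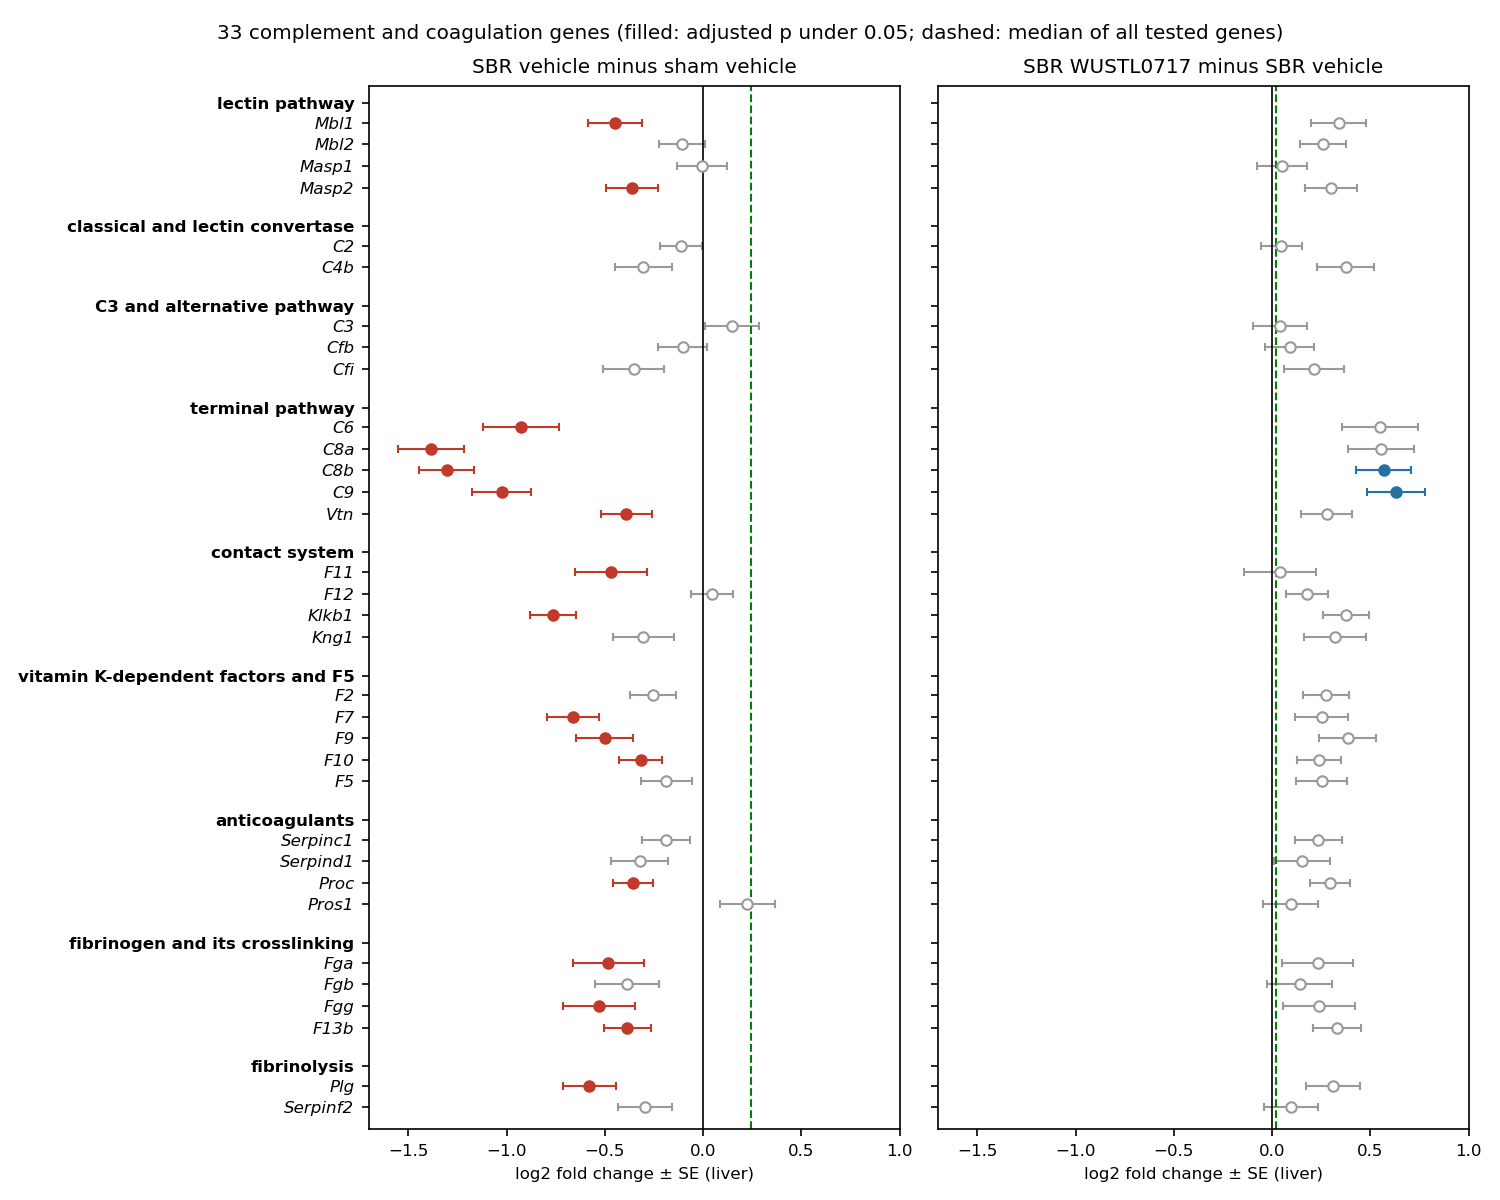
Log2 fold change (x axis, with SE) of each of the 33 genes in the liver, grouped by role, for SBR vehicle minus sham vehicle (left) and SBR WUSTL0717 minus SBR vehicle (right). Filled points passed an adjusted p of 0.05 and the dashed line is the median of all tested genes, 0.25 on the left and 0.02 on the right. On the left 17 points are filled and below 0, and on the right 2 are filled and above 0.

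Hepatocyte markers moved with the members. Of 13 such markers 8 fell after SBR and 0 rose, with a median of -0.42, where 4.47% of all genes were lower and 37.4% higher. Their mean level per library was 7.50 to 8.03 in sham, 6.63 to 7.64 in SBR vehicle and 7.61 to 7.97 in WUSTL0717 mice. Their part in the result was tested only by the centring described next. At the same time 6 of 6 cholangiocyte markers rose, with a median of 2.12, and 7 of 8 stellate cell and fibroblast markers, with a median of 1.46. The mean level of the cholangiocyte markers was 3.37 to 4.22 in sham, 5.63 to 6.44 in SBR vehicle and 4.75 to 5.94 in WUSTL0717 libraries. The hepatocyte markers did not move alike: the median of *Alb*, which fell least, was 9.44 in sham and 9.41 in SBR vehicle libraries. In these bulk libraries fewer hepatocytes and less RNA per hepatocyte cannot be told apart. When the liver libraries were centred on the mean of their hepatocyte markers, a setting chosen after seeing the data, *C8a*, *C8b*, *C9* and *Klkb1* were the 4 members still lower, beside 1.26% of all genes. *C8a* then fell by 0.90, *C8b* by 0.82, *C9* by 0.54 and *Klkb1* by 0.28. The other 13 calls were lost, 7 of them (*Mbl1*, *Masp2*, *Vtn*, *F11*, *F10*, *Proc* and *F13b*) with a change of sign, and 11 members, among them *C3*, *F12* and *Pros1*, were higher, beside 87.8% of all genes.

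All 5 genes of the terminal pathway fell, with a median of -1.02. *C8a*, which encodes the alpha chain of C8, the component that first enters the membrane, was 5.22, 5.15, 5.39, 5.27 and 5.12 in the sham libraries. In the SBR vehicle libraries it ranged from 3.29 through a median of 3.83 to 4.52, so the groups did not overlap. The log2 fold change was -1.38 (SE 0.17, limma adjusted p = 2.93e-06). *C8b*, the beta chain that binds the nascent complex, was 4.80, 4.42, 4.52, 4.45 and 4.74 in sham libraries and 2.86 to 3.67 with a median of 3.28 after SBR. Here too every SBR vehicle library lay below the lowest sham library, and the log2 fold change was -1.30 (SE 0.14, limma adjusted p = 7.30e-07). *C9*, whose protein polymerizes into the wall of the pore, was 5.07, 4.97, 5.28, 5.00 and 4.94 in sham libraries and 3.53 to 4.55 with a median of 4.05 after SBR. These groups did not overlap either (log2 fold change -1.02, SE 0.15, limma adjusted p = 2.36e-05). For each of the 3 genes the exact two-sided permutation test over libraries gave p = 0.000777, the smallest that 8 libraries against 5 can give.

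*C6*, which joins C5b to begin the pore, was 5.64, 5.46, 5.47, 4.97 and 5.23 in sham and 4.06 to 5.13 with a median of 4.28 after SBR. The groups overlapped through sham library 4 and SBR vehicle library 4 (log2 fold change -0.92, SE 0.19, limma adjusted p = 8.09e-04). *Vtn* (vitronectin), which keeps the forming complex off membranes and also binds the matrix, fell least. It was 6.75 to 7.06 in sham and 5.80 to 6.80 after SBR (log2 fold change -0.39, SE 0.13, limma adjusted p = 0.0204), and it lost the call when sham library 3 or 4 was left out (adjusted p = 0.0568 and 0.0529).

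**Figure D3:**
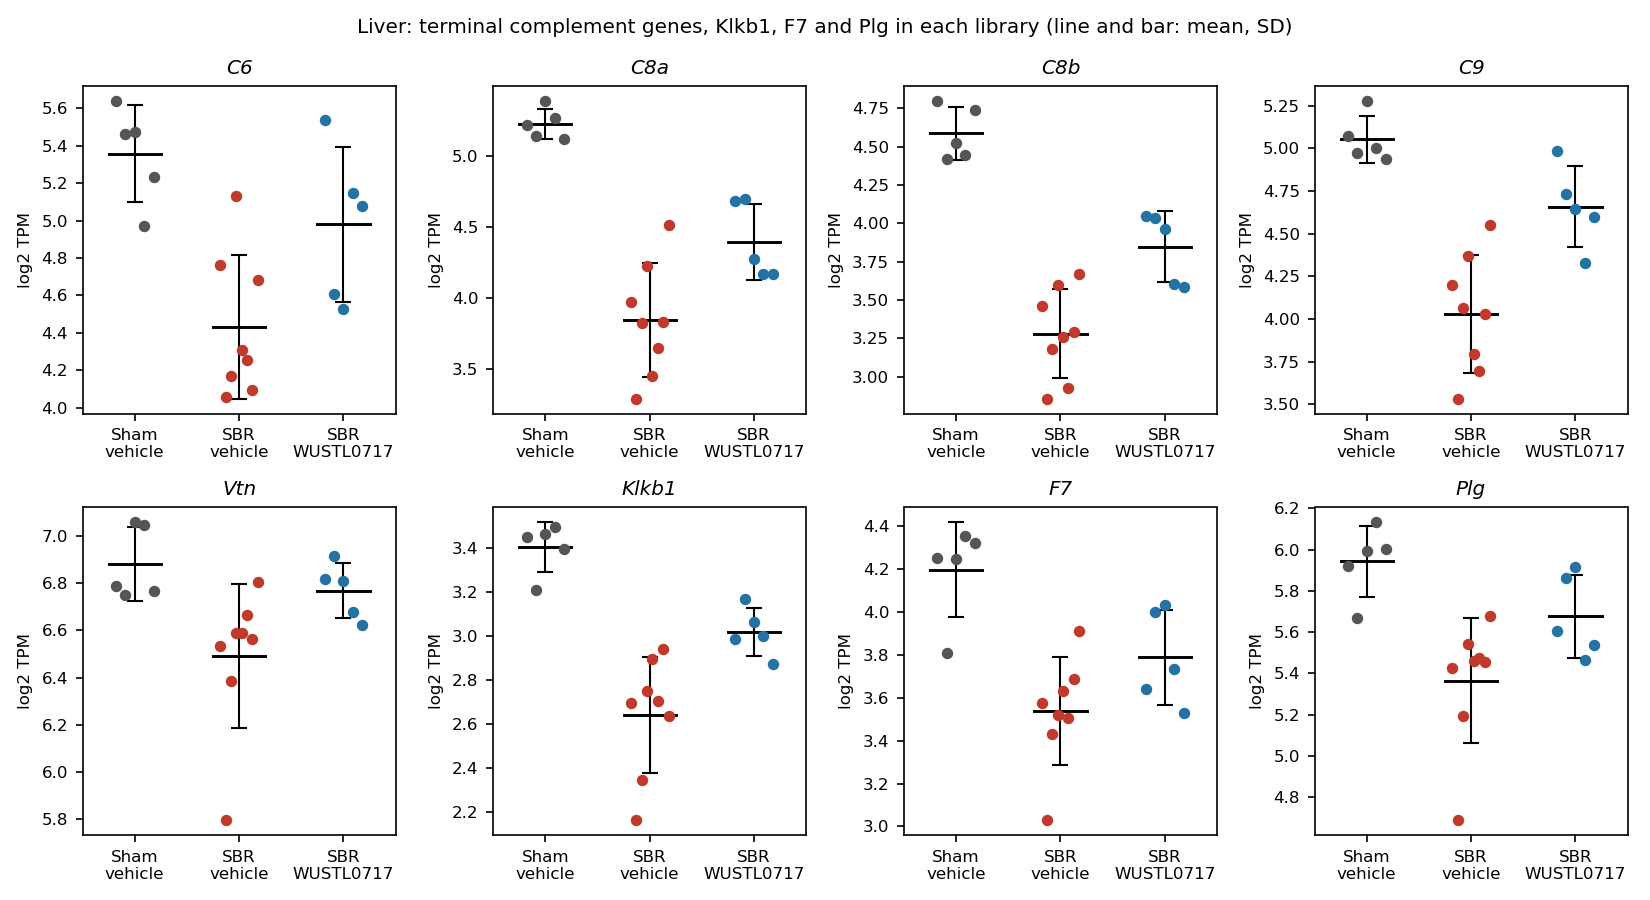
Log2 TPM (y axis) of the 5 terminal pathway genes and of Klkb1, F7 and Plg in each liver library, by group, with the mean and SD. The SBR vehicle points lie below all sham points for C8a, C8b, C9 and Klkb1, and the WUSTL0717 means lie between those of the other groups. The WUSTL0717 points overlap SBR vehicle for all 8 genes and lie below all sham points for C8a, C8b and Klkb1.

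Upstream in complement fewer genes were called. Of the 4 lectin pathway genes *Mbl1*, one of a pair of mannose-binding lectins, fell by 0.45 (SE 0.14, limma adjusted p = 0.0149) and *Masp2*, the protease that cleaves C4 and C2, fell by 0.36 (SE 0.13, limma adjusted p = 0.0344). *Mbl1* was 3.98 to 4.53 in sham and 3.21 to 4.09 after SBR. The other mannose-binding lectin gene, *Mbl2*, had a log2 fold change of -0.11 (adjusted p = 0.474), and *Masp1*, which encodes the other protease, one of -0.00 (adjusted p = 0.983). *C2* and *C4b*, which supply the C3 convertase of the classical and lectin routes, had log2 fold changes of -0.11 and -0.30 and were not called. Nor were *C3*, the central component (0.15), *Cfb*, factor B of the alternative convertase (-0.10), and *Cfi*, the protease that inactivates C3b and C4b (-0.35, adjusted p = 0.0718). The 9 genes upstream of the pore thus gave 2 calls, both lower.

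Among the clotting genes, those of the contact system split. *Klkb1*, which encodes plasma prekallikrein, was 3.45, 3.21, 3.46, 3.50 and 3.40 in sham libraries and 2.16 to 2.94 with a median of 2.70 after SBR. The groups did not overlap (log2 fold change -0.76, SE 0.12, limma adjusted p = 4.08e-05). *F11* (factor XI) fell by 0.47 (limma adjusted p = 0.0455) but kept the call in only 6 of 13 fits that each left out 1 library. *F12* (factor XII), which starts the contact system, had a log2 fold change of 0.05, and *Kng1* (high molecular weight kininogen), the cofactor of prekallikrein, one of -0.30 (adjusted p = 0.127). The neighbouring *F11* and *Klkb1* correlated at r = 0.69 over the 18 libraries, or 0.31 once group means and SBR vehicle libraries 2 and 3 were removed.

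Of the vitamin K-dependent procoagulants, *F7* (factor VII), the partner of tissue factor, fell most. It was 4.25, 3.81, 4.25, 4.36 and 4.32 in sham and 3.03 to 3.91 with a median of 3.55 after SBR. The lowest sham library, number 2, lay inside the SBR range (log2 fold change -0.66, SE 0.13, limma adjusted p = 5.88e-04). *F9* (factor IX) fell by 0.50 (limma adjusted p = 0.00984) and *F10* (factor X), which forms prothrombinase, by 0.32 (limma adjusted p = 0.0270). *F2* (prothrombin) had a log2 fold change of -0.25 (adjusted p = 0.0866) and *F5* (factor V, a cofactor that does not depend on vitamin K) one of -0.19 (adjusted p = 0.265). The neighbours *F7* and *F10* correlated at r = 0.92 over the 18 libraries and at 0.95 after group means and SBR vehicle libraries 2 and 3 were removed.

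Of the anticoagulants only *Proc* (protein C), which inactivates factors Va and VIIIa, was called. It was 5.90 to 6.18 in sham and 5.25 to 5.90 after SBR (log2 fold change -0.36, SE 0.10, limma adjusted p = 0.00860). *Serpinc1* (antithrombin) had a log2 fold change of -0.19 (adjusted p = 0.218) and *Serpind1* (heparin cofactor II) one of -0.32 (adjusted p = 0.0796). *Pros1* (protein S, the cofactor of protein C, also made outside hepatocytes) had the highest value of the 33, 0.22 (adjusted p = 0.207), which centring on the library median turned to -0.08.

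Of the 3 fibrinogen chains 2 were called. *Fga* fell by 0.48 (SE 0.18, limma adjusted p = 0.0392) and *Fgg* by 0.53 (SE 0.18, limma adjusted p = 0.0256), the call of *Fga* holding in 6 of 13 fits with 1 library left out, whereas *Fgb* had a log2 fold change of -0.39 that was not called (adjusted p = 0.0656). *Fgg* was 5.87, 5.75, 6.29, 6.02 and 5.86 in sham and 4.44 to 5.93 after SBR, an overlapping range. Across the 18 libraries the 3 chains correlated pairwise at r = 0.97 to 0.99, and *Fga* with *Fgg* at 0.99 also after group means and SBR vehicle libraries 2 and 3 were removed. *F13b*, the carrier subunit of the fibrin-crosslinking factor XIII, fell by 0.39 (limma adjusted p = 0.0150). *Plg* (plasminogen) fell by 0.58 (SE 0.14, limma adjusted p = 0.00232), from 5.67 to 6.13 in sham to 4.69 to 5.68 after SBR, and its inhibitor *Serpinf2* (alpha-2-antiplasmin) had a log2 fold change of -0.29 (adjusted p = 0.0915).

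Over all 528 pairs of members the median correlation was r = 0.74 across the 18 liver libraries, and 0.76 with group means removed. It was 0.49 once SBR vehicle libraries 2 and 3 were also left out. *C8a* and *C8b* then had r = 0.72 and *C6* and *C9* r = 0.51. Genes measured in 1 library share its depth and composition, so these values are descriptions only.

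Of the 17 calls 11 were kept in each of 13 fits that left out 1 liver library of the compared groups, and *Masp2*, *Vtn*, *F11*, *F10*, *Fga* and *Fgg* lost the call in at least 1. The number of members called ranged from 12, when sham library 4 was dropped, to 21, when SBR vehicle library 8 was, beside 3.45% and 4.26% of all genes lower. Dropping SBR vehicle library 2 gave 19 lower and 1 higher, beside 4.38% and 52.3% of all genes. With SBR vehicle libraries 2 and 3 both left out, a setting chosen after seeing the data, 14 members were lower, all among the 17, and *F12* and *Pros1* were higher, beside 3.88% and 59.6% of all genes. Of the 33 differences 27 were then negative and 6 positive, with a median of -0.24.

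Other complement and coagulation genes that hepatocytes make, listed apart from the members, gave 11 lower and 2 higher of 24 tested. This is set beside 4.47% and 37.4% of all genes, and their median was -0.33. Among those that fell was *Colec10*, a collectin of the lectin pathway (log2 fold change -0.90, limma adjusted p = 1.45e-04). Of the complement and coagulation genes of other cells 14 were higher and 4 lower of 26, beside 37.4% and 4.47% of all genes, and they had a median of 0.55, which is 0.30 above that of the 15901 genes. Those with the smallest p were *Plau* (urokinase, 1.35), *F2rl1* (a protease-activated receptor, 1.78) and *C3ar1* (the C3a receptor, 1.33), with limma adjusted p-values of 2.63e-07, 7.57e-07 and 1.95e-06. Of 12 hepatocyte transcription factors 2 fell, *Cebpa* by 0.48 (limma adjusted p = 0.00733) and *Nr1i3* by 0.52 (limma adjusted p = 0.0337), and *Onecut1* rose by 0.98 (limma adjusted p = 0.0182).

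The second comparison asks how WUSTL0717 changed these transcripts in the liver after SBR. It uses the same SBR vehicle libraries as the first, so the values of both are given side by side and no relation between them is drawn. Of all genes tested, 1.44% were higher and 2.66% lower with WUSTL0717. Among the members 2 of 33 were higher, *C9* and *C8b*, and 0 were lower. All 33 had a positive difference, with a median of 0.25 against 0.02 over all genes. With SBR vehicle libraries 2 and 3 left out, 25 were positive and 8 negative, the median was 0.14, and 2 were higher and 0 lower, beside 1.34% and 6.45% of all genes. The limma p was under 0.05 before adjustment for 16 of the 33, and for 2738 of the 15901 genes.

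*C9* was 4.98, 4.73, 4.65, 4.33 and 4.60 in the WUSTL0717 libraries against 3.53 to 4.55 in SBR vehicle. Library 4 was the only one of the 5 inside the vehicle range (log2 fold change 0.63, SE 0.15, limma adjusted p = 0.0237, exact permutation p = 0.00622). *C8b* was 4.05, 4.03, 3.96, 3.61 and 3.59 against 2.86 to 3.67, and libraries 4 and 5 lay inside the vehicle range (log2 fold change 0.57, SE 0.14, limma adjusted p = 0.0273, exact permutation p = 0.00622). Both calls were lost when WUSTL0717 library 1, 2 or 3 was left out, with adjusted p-values between 0.0748 and 0.0973, and that of *C8b* was also lost, at an adjusted p just over the threshold, without SBR vehicle library 6. *C8a* had a log2 fold change of 0.55 (adjusted p = 0.0709), *C6* one of 0.55 (adjusted p = 0.125) and *Vtn* one of 0.28 (adjusted p = 0.273).

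Of the other members, *Klkb1* had a log2 fold change of 0.38 (adjusted p = 0.0799), *F9* one of 0.39 (adjusted p = 0.156) and *F13b* one of 0.33 (adjusted p = 0.142). *F9* and *F13b* were the 2 members for which every WUSTL0717 library lay above every SBR vehicle library, against 1.23% of all genes. *F9* was 3.87, 3.81, 3.77, 3.71 and 3.79 with WUSTL0717 and at most 3.69 with vehicle, and *F13b* was 3.95 to 4.07 against at most 3.93. The smallest differences were those of *F11* (0.04), *C3* (0.04), *C2* (0.05) and *Masp1* (0.05). The fibrinogen chains *Fga*, *Fgb* and *Fgg* had 0.23, 0.14 and 0.24. The number of members called depended on the scaling. It was 16, all higher, when each library was centred on its median and 11, all higher, with quantile normalization, beside 11.5% and 8.09% of all genes, and 0 by an unmoderated two-sample test, which called no gene of the 15901.

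Hepatocyte markers moved with the members here as well, with 3 of 13 higher and a median of 0.41, while 5 of 6 cholangiocyte markers and 4 of 8 stellate cell and fibroblast markers were lower. Of all genes 1.44% were higher and 2.66% lower. Centred on the hepatocyte markers, *C8b* had a difference of 0.14 (limma adjusted p = 0.377) and *C9* one of 0.20 (limma adjusted p = 0.253). Then 0 members were higher with WUSTL0717 and 12 were lower, among them *Serpinf2*, *Masp1* and *C3*, beside 71.6% of all genes. Among the other hepatocyte complement and coagulation genes 2 of 24 were higher, among them *Colec10* by 0.88 (limma adjusted p = 0.00692).

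The third comparison sets the WUSTL0717 mice against sham. Of all genes tested 0.906% were lower and 27.9% higher, and of the members 4 were lower and 0 higher. *C8a* was 4.17 to 4.70 with WUSTL0717 and at least 5.12 in sham (log2 fold change -0.83, SE 0.19, limma adjusted p = 0.00386). *C8b* was at most 4.05 against at least 4.42 (-0.74, SE 0.15, limma adjusted p = 0.00248). *Klkb1* (-0.39, limma adjusted p = 0.0343) was at most 3.17 against at least 3.21, and *F7* (-0.41, limma adjusted p = 0.0445) overlapped. When each library of these groups was left out in turn, 2 members were lower in 7 of the 10 fits and 4 in the other 3, beside 0.597% to 0.981% of all genes. The other 13 of the 17 genes that fell after SBR were not called here, among them *C9* (-0.39, adjusted p = 0.0780) and *Plg* (-0.27, adjusted p = 0.175), which does not show that they matched sham. By group means, 23 members ran from SBR vehicle at the bottom through WUSTL0717 to sham, 7 had sham in the middle, and *C3*, *F12* and *Pros1* had sham lowest. The SBR vehicle mean includes library 2, the lowest liver library for 32 members. Without SBR vehicle libraries 2 and 3, 8 members had a negative difference between WUSTL0717 and SBR vehicle. These orders are descriptions only, and their shares over all genes were not computed. With each library centred on its median, 27 members were lower than sham, beside 8.93% of all genes.

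*Mbl2* in the ileum was the member with the largest difference in any tissue. It was 8.42, 8.43 and 7.34 in the sham ileum and 3.38, 4.39, 4.17 and 2.80 after SBR. It was 4.00, 1.81, 3.95 and 4.76 with WUSTL0717. Both resected groups lay wholly below sham and overlapped each other. After SBR the log2 fold change was -4.38 (SE 0.63, limma adjusted p = 0.0145), and the exact permutation p was 0.0286, the smallest that 4 against 3 can give. *Mbl2* was the 1 member called there, beside 0.349% of 15772 genes. The call was lost when sham library 1, sham library 2 or SBR vehicle library 1 was dropped, with adjusted p-values of 0.0809, 0.0980 and 0.0543, and the log2 fold change then lay between -4.28 and -4.20. Between WUSTL0717 and SBR vehicle *Mbl2* had a difference of -0.06 (adjusted p = 0.998), and 0 members were called, beside 0.0697% of genes.

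Against sham, the WUSTL0717 ileum had 2 members called lower, *Mbl2* by 4.44 (SE 0.63, limma adjusted p = 0.00586) and *Cfi* by 2.14 (SE 0.41, limma adjusted p = 0.0235), beside 2.17% of genes in either direction. *Cfi*, complement factor I, was 5.48, 5.41 and 5.16 in sham ileum, 5.05, 5.29, 3.79 and 4.95 after SBR, and 3.81, 3.52, 2.31 and 3.21 with WUSTL0717. The WUSTL0717 and sham ranges did not overlap, while the WUSTL0717 and SBR vehicle ranges did so by 1 library (log2 fold change -1.56, adjusted p = 0.413). *Cfb* had every WUSTL0717 library (3.64, 3.62, 4.03 and 4.12) above the SBR vehicle libraries (2.87, 2.43, 2.22 and 3.21) without a call (log2 fold change 1.17, adjusted p = 0.417).

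In the duodenum *Mbl2* was 5.54, 6.64 and 5.10 in sham, 7.04, 4.94, 7.33 and 4.85 after SBR, and 4.37, 5.25, 3.83 and 5.30 with WUSTL0717. The 3 groups overlapped (log2 fold change after SBR 0.28, SE 0.70, adjusted p = 0.854). *Cfi* was 8.02, 7.98 and 8.03 in sham duodenum and 7.69, 6.60, 4.92 and 6.81 after SBR, so that all SBR libraries lay below sham, but the difference of -1.50 was not called (adjusted p = 0.297). No member was called in any duodenal comparison. Over all genes 0% were called after SBR (limma, 2426 genes at an unadjusted p under 0.05), 0.258% between WUSTL0717 and SBR vehicle, and 0.802% between WUSTL0717 and sham.

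The effect of SBR on *Mbl2* was compared between tissues by an interaction term in limma. It was 4.27 lower in the ileum than in the liver (SE 0.65, limma adjusted p = 3.83e-05), where *Mbl2* lay between 5.97 and 6.31 in sham and between 5.46 and 6.35 after SBR. With the batches as taken here, tissue and correction batch coincide in that pair, so the size of the difference is on scales adjusted apart. Against the duodenum, taken to share the batch of the ileum, the difference was -4.66 (SE 0.98). It missed the threshold after adjustment over 15923 genes (limma adjusted p = 0.0688). Both fits treated all libraries as independent and used 1 spread per gene over the tissues fitted, although *Mbl2* varied less in the liver than in the intestine. The labels do not say whether tissues came from the same mice, so no pairing was entered.

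**Figure D4:**
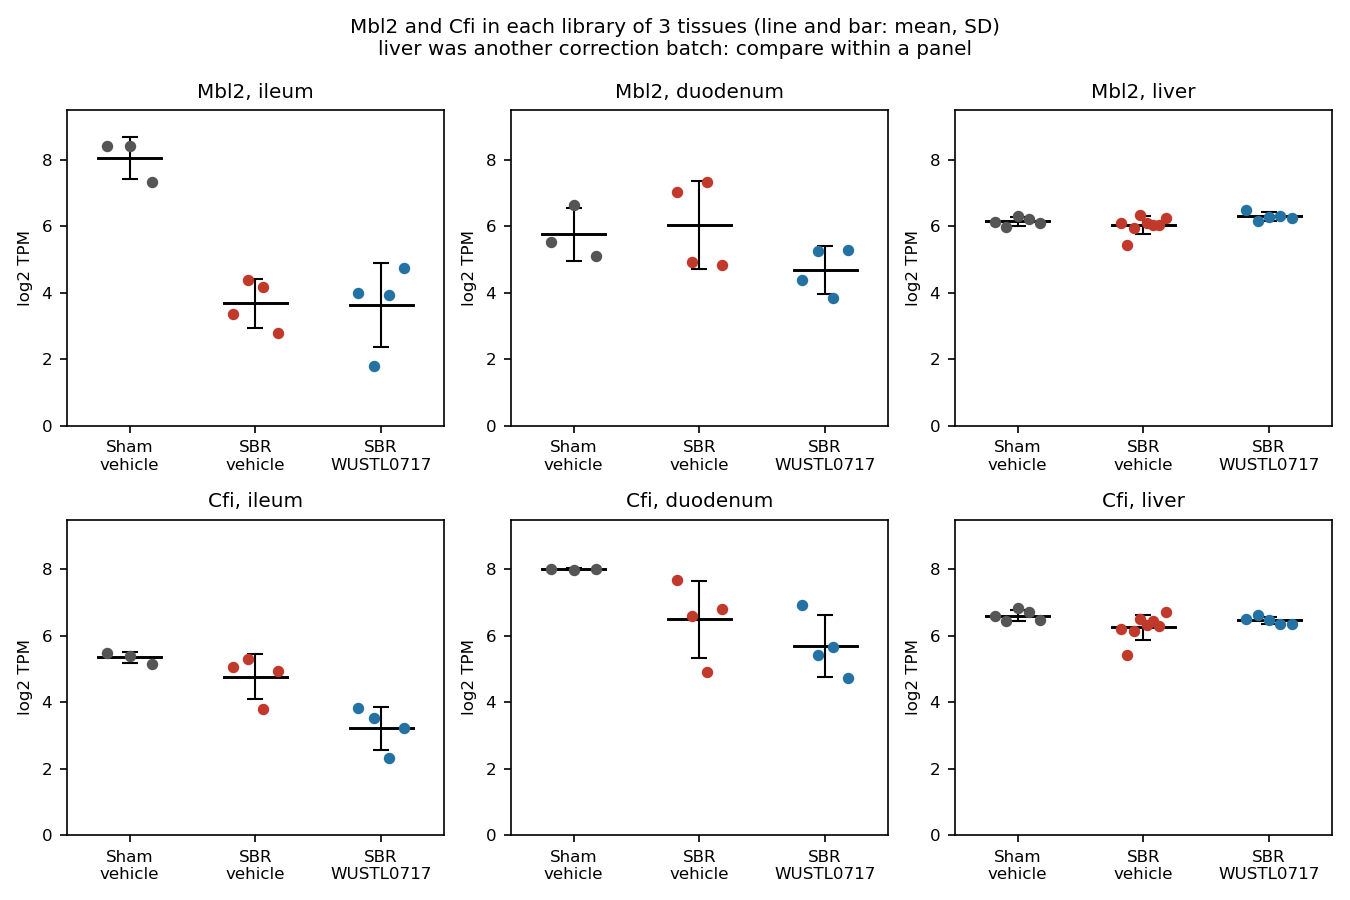
Log2 TPM (y axis) of Mbl2 (top) and Cfi (bottom) in each library of the ileum, duodenum and liver, by group, with the mean and SD. In the ileum the 3 sham libraries of Mbl2 lie between 7.34 and 8.43 and all 8 resected libraries at or below 4.76, while the liver groups overlap. Levels can be compared within a panel only.

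In the intestine 22 of the 33 members had no tied lowest value. Among the other 11, tied lowest values were shared by 14 of 22 libraries for *Fgg*, 11 for *C9*, 9 each for *C8a*, *Kng1*, *Fgb* and *F13b*, 8 for *C8b*, 7 for *F9* and 6 for *Fga*. The median log2 fold change over the 33 members was 0.14 in the ileum and -0.13 in the duodenum after SBR, against 0.07 and -0.36 over all genes.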

How the data were processed

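Log2 TPM values of 40 libraries were used as the authors deposited them in 1 table. Per the labels and the study's methods, the authors depleted ribosomal RNA, sequenced paired ends, aligned reads with STAR to GRCm38, counted uniquely aligned reads with featureCounts, scaled them with edgeR, computed TPM, took log2 with a pseudocount not given in the sources used here, and applied ComBat. The versions of these tools are not given here. Turned back into TPM, libraries summed to between 634149 and 879048, so depth and the precision it gives are unknown.

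In each tissue, limma 3.58.1 (R 4.3.3) was fitted to its 3 groups over genes averaging 1 or more on the log2 TPM scale. The variance prior followed expression, and p-values were adjusted by Benjamini-Hochberg over every gene fitted (threshold 0.05). Single genes were also compared with exact two-sided permutation tests in Python 3.11.15. The study's methods say that controls were co-housed littermates of the treated mice, but the labels tie no library to a litter or cage, so none entered the fit. No 2 libraries were identical.

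The 33 members and the other lists were chosen with earlier results of these data known. All members are accounted for, every called member is named, and at most 3 genes of any other list are named, those with the smallest p, apart from 1 gene that is not reported here. Alternatives were no filter, a filter at 3, a pseudocount of 5, centring on the median, quantile normalization, an unmoderated test, no variance trend, library weights, the 2 compared groups alone, a replicate block, leaving out each library and, added after seeing the data, centring on hepatocyte markers and leaving out SBR vehicle libraries 2 and 3.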

Additional observations from a re-analysis of the deposited data

Results flagged for a closer look

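Over the 33 members in the 3 liver groups and *Mbl2* in the resected intestinal groups, 103 groups of 4 to 8 libraries were searched for a library whose gap to its nearest neighbour was large for the range of the group. Chance gives about 1 in 20, and 14 were found, in 3 libraries. SBR vehicle library 2 of the liver was the low extreme for 10 genes: *Mbl2* at 5.46, *C3* at 8.44, *Cfi* at 5.41, *Vtn* at 5.80, *F11* at 2.32, *F9* at 2.61, *F10* at 4.24, *Serpind1* at 4.30, *Fgb* at 4.85 and *Serpinf2* at 5.11 log2 TPM. These genes share 1 library and are not independent. Sham library 2 of the liver was the low extreme for *Masp2* at 3.86, *F7* at 3.81 and *Serpinf2* at 5.72, and WUSTL0717 library 5 for *F12* at 5.54. What sets SBR vehicle library 2 apart was not tested. Its *Alb* was 8.16, the lowest of the 18.

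The effect of SBR on *Mbl2* differed between ileum and liver by the limma interaction term, with a difference of -4.27 (adjusted p = 3.83e-05). Tissue and correction batch, as taken here, coincide in that pair. Between ileum and duodenum the difference was -4.66 and missed the threshold (limma adjusted p = 0.0688).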

How the results depend on the processing

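Depth is unknown for these TPM values, so no limit from counting could be set. In the liver, the 17 members called after SBR became 31 with libraries centred on their median and 31 with quantile normalization (28.8% and 26.8% of all genes lower), and every other planned setting gave between 13 and 25 (12 to 21 with 1 library left out). The 25, from library weights, were 22 lower and 3 higher, beside 5.65% and 60.1% of all genes. Centring turned the share of calls over all genes that were higher from 89.3% to 41.5%. Between WUSTL0717 and SBR vehicle, where 2 members were called, centring on the median gave 16, quantile normalization 11, library weights 6, the unmoderated test 0, the 2 compared groups alone 0 and centring on hepatocyte markers 12, all of them lower. The 6 were higher, where library weights called 3.92% of all genes higher and 13.8% lower, and the 2 groups alone called 0.321% and 0.522%. Leaving out 1 library gave 0 to 4. Against sham, the 4 members called with WUSTL0717 became 27 with median centring, 27 with quantile normalization, 13 with library weights (2 higher and 11 lower), 7 with the 2 compared groups alone (2 higher and 5 lower) and 9 without SBR vehicle libraries 2 and 3 (2 higher and 7 lower), and 2 to 4 with 1 library left out. In those 3 settings 50.3%, 39.8% and 47.5% of all genes were higher and 2.45%, 1.2% and 1.25% lower. The cause was not tested.

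In the ileum the 1 member called after SBR became 0 by the unmoderated test, in which *Mbl2* kept its log2 fold change of -4.38 with an adjusted p of 0.130. Leaving out 1 library gave 0 to 1 calls and -4.74 to -4.09 for *Mbl2*. The 2 members called between WUSTL0717 and sham became 0 by the unmoderated test and 1 to 2 with 1 library left out. In the duodenum library weights gave 2 members lower after SBR and 3 lower between WUSTL0717 and sham, where 0 were called before, beside 15.2% and 5.04% of all genes lower. The difference in the *Mbl2* effect between ileum and duodenum passed the threshold with a pseudocount of 5 (-4.18), median centring (-5.14), quantile normalization (-4.96) and library weights (-3.83), and ranged from -5.10 to -4.23 with 1 library left out, where it passed only without duodenal SBR vehicle library 1 (-4.33, adjusted p = 0.0423) and the adjusted p otherwise lay between 0.0592 and 0.200.

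The labels do not say that replicate numbers pair the mice. Deviations were correlated between same-numbered libraries of different groups within a tissue. The correlation was over 0.1 in 2 of 15 liver, 1 of 10 ileal and 3 of 10 duodenal pairs. Same-numbered libraries of different tissues were not compared. With a replicate block, 20 members were called in the liver after SBR, 1 between WUSTL0717 and SBR vehicle and 0 in the ileum after SBR, where *Mbl2* had -4.42 (adjusted p = 0.0867). The 20 were lower and the 1 higher, beside 4.5% and 0.811% of all genes.

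With hepatocyte-marker centring, 23 of the 33 members were positive after SBR, 7 of the 17 called ones among them, and 29 were negative between WUSTL0717 and SBR vehicle. Under the planned settings the members that changed sign were ones not called in the fits reported above. After SBR in the liver, median centring gave -0.16 for *C3*, -0.26 for *F12* (adjusted p = 5.91e-04) and -0.082 for *Pros1*, quantile normalization -0.18 for *F12* (adjusted p = 0.00228) and -0.017 for *Pros1*, the replicate block -0.053 for *F12*, and library weights 0.032 for *Cfb* and 0.064 for *Masp1*. *Masp1* was 0.00056 with a pseudocount of 5 and -0.070 to 0.077 with 1 library left out. Between WUSTL0717 and SBR vehicle, library weights gave -0.14 for *Masp1*, -0.045 for *C2*, -0.11 for *C3*, -0.066 for *Cfb*, -0.17 for *F11*, -0.023 for *Serpind1*, -0.046 for *Fgb* and -0.065 for *Serpinf2*, and quantile normalization -0.074 for *C3*. With 1 library left out the ranges were -0.032 to 0.096 for *Masp1*, -0.0057 to 0.098 for *C2*, -0.039 to 0.081 for *C3* and -0.083 to 0.089 for *F11*.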

Other observations

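The other cell type lists in the liver are read against the 37.4% of all genes that were higher after SBR. The 9 Kupffer cell and macrophage markers had a median of -0.18, with 5 of 9 negative. Of these 2 rose, *Lyz2* by 1.13 and *Cd68* by 0.99, and 1, *Timd4*, a marker of resident Kupffer cells, fell by 0.81 (limma adjusted p = 1.25e-05, 2.40e-05 and 0.00510). Of 7 sinusoidal endothelial markers 1 rose, *Lyve1*, by 1.09 (limma adjusted p = 5.10e-04). Of 7 enterocyte markers 4 rose, among them *Apoa4* by 2.62, a gene that hepatocytes can also express, and *Vil1* by 1.04, which cholangiocytes also express. Between WUSTL0717 and SBR vehicle the 9 Kupffer cell and macrophage markers had a median of 0.46, with 7 of 9 positive and 1 called, *Clec4f*, which was 0.75 higher (limma adjusted p = 0.0459), where 1.44% of all genes were higher. Among complement and coagulation genes of other cells, 1 of 26 was higher with WUSTL0717, the ficolin gene *Fcna* by 0.94, and 3 were lower, among them *Plat* (tissue plasminogen activator), which fell by 0.93, and *Serpine2*, which fell by 0.65 (limma adjusted p = 0.0193, 0.0200 and 0.0280). The share of all genes that were lower was 2.66%.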
